A study of Mus musculus with 4 samples.

Results

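The 10 genes described here encode transcription factors of the ATF4-CHOP stress pathway and proteins that feed back on it. They are Atf4, its partners and relatives Atf3, Atf5, Cebpb and Cebpg, the CHOP gene Ddit3, and Trib3, Nupr1, Ppp1r15a and Sesn2. They were chosen by name, as the rows of the count table whose Ensembl identifiers carry these symbols, with earlier results of these data already known. All 10 were found among 53465 gene rows, and all 10 passed the filter on low counts that left 13664 genes for testing. RNA-seq was done on B16 cells, a mouse melanoma line. The EM-plasma group held 2 libraries of cells taken after 4 h with plasma that had been treated with exosome-mimetic nanovesicles (EMs), and the control group held 2 libraries. By its title the series concerns Golgi stress and ferroptosis, a form of cell death that depends on iron. The labels do not say whether the plasma was a gas or a blood fraction, what the control cells received, or when these were collected. Separate cultures are not stated for the 2 libraries of a group, so p-values here reflect the spread between libraries, which may be technical.

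When kinases that sense amino acid shortage, misfolded protein, haem loss or double-stranded RNA phosphorylate the translation factor eIF2alpha, most protein synthesis slows while the Atf4 message is translated more. ATF4 protein then binds DNA as a pair with another leucine zipper protein, often a C/EBP factor, and raises genes of amino acid supply, redox balance and further stress factors. The response also restrains itself: GADD34, made from Ppp1r15a, guides a phosphatase to eIF2alpha, and TRIB3 binds ATF4. RNA levels do not show how much ATF4 protein a cell makes.

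Total counts ran from 46295133 to 46557637 in EM-plasma libraries and from 47664388 to 49367932 in control libraries. The 2 control libraries differed from each other more than the 2 EM-plasma libraries did, with a chi-square of their counts of 8.12 per degree of freedom in controls and 2.94 in EM-plasma. Markers of the labelled cell type were present in all libraries: 7 of 7 melanocyte and melanoma markers had reads, with a summed level of 11130 to 11330 CPM in EM-plasma and 10990 to 11060 CPM in controls. CPM are counts scaled to a common library total with edgeR's TMM factors. Of 5 red cell and platelet markers Hbb-bs, Alas2, Ppbp and Pf4 had 0 reads in all 4 libraries, and of 5 leukocyte markers Ptprc and Itgam had 0. The summed level of the 5 leukocyte markers was 1.59 to 1.91 CPM in EM-plasma and 1.2 to 1.71 CPM in controls. The 3 fibroblast markers summed to 5.50 to 6.01 CPM in EM-plasma and 4.29 to 4.58 CPM in controls, and the 2 endothelial and 2 keratinocyte markers to less in every library. In bulk RNA a small rise in every cell and a large rise in a few cells cannot be told apart.

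Of the 10 genes, Trib3, Nupr1, Atf3, Ddit3 and Atf4 rose in EM-plasma-treated cells, by 1.13-fold to 1.5-fold, and 0 fell. Calls are from the quasi-likelihood test of edgeR, with p-values adjusted by Benjamini-Hochberg over all 13664 genes and a threshold of 0.05. By that rule 5 of 10 were called higher, against 3.34% of all tested genes, and 0 of 10 lower, against 2.88%. For 9 of the 10 both EM-plasma libraries lay above both control libraries, which was so for 24.3% of all tested genes. Cebpg was the exception, and its groups overlapped. The median log2 fold change was 0.26 over the 10 genes and -0.0027 over all tested genes. With all 4 libraries 8 of the 10 had an unadjusted p below 0.05, as had 19.5% of all tested genes.

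**Figure D1:**
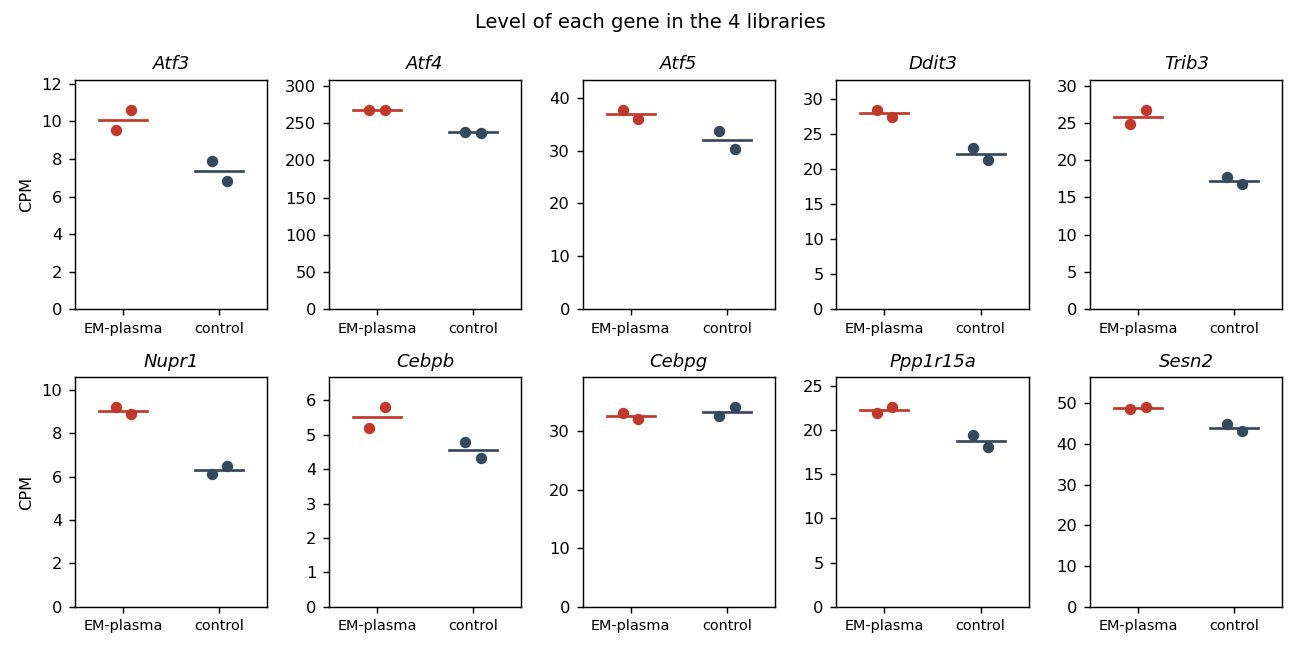
Level of each of the 10 genes in CPM (linear axis from 0, a scale of its own in each panel). Points are single libraries, EM-plasma on the left and control on the right, and lines are means of 2. Both EM-plasma points lie above both control points for every gene but Cebpg, and the gap is widest relative to the level for Trib3, at 24.8 and 26.8 CPM against 17.8 and 16.8 CPM.

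Most of these calls depended on single libraries and on the filter. DESeq2's size factors, voom and a newer edgeR dispersion each called 5 of the 10 higher (3.56%, 3.11% and 3.45% of all tested genes), and DESeq2's own test called 4 (2.03%). With no filter on low counts 0 of the 10 were called, against 0.0568% of all 22906 genes then tested. With 1 library left out, 2 of the 10 genes were called higher without EM-plasma 1 (1.11% of all tested genes), 2 without EM-plasma 2 (1.18%), 3 without control 1 (1.82%) and 0 without control 2 (0.339%). The log2 fold changes of 9 of the 10 stayed above 0 in these 4 fits. That of Cebpg, which was -0.034 with all 4 libraries, rounded to 0 without control 2. The median of the 10 genes ran from 0.20 to 0.32. In 8 of the 10 genes control 2 lay below control 1, which was so for 49.9% of all tested genes. The part of this difference between control libraries in the calls was not tested beyond the fits above.

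**Figure D2:**
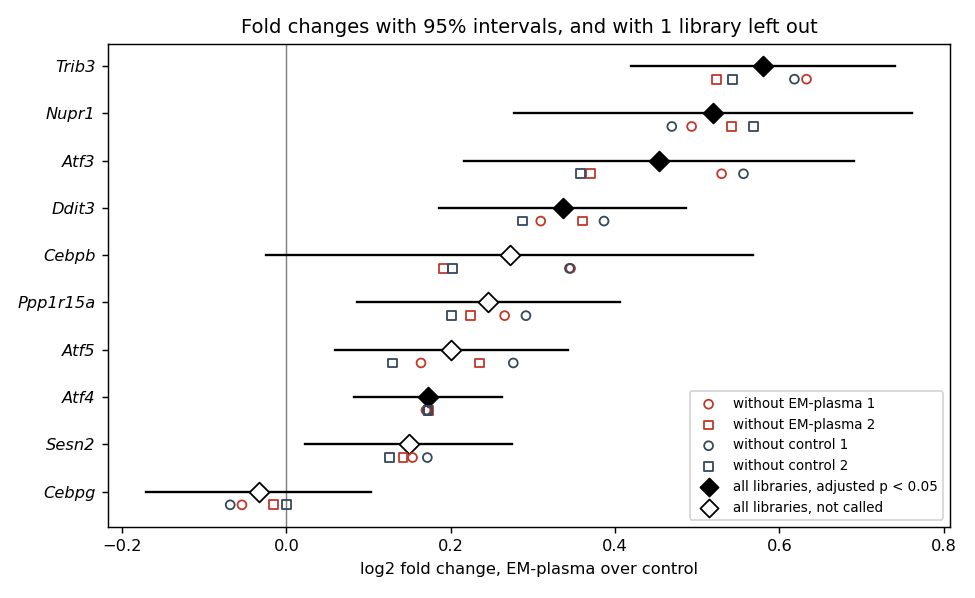
Log2 fold change of EM-plasma over control for each gene, in order of size. Diamonds are the fit of all 4 libraries with 95% intervals (filled where the adjusted p is below 0.05), and small open symbols below them are the fits that leave out 1 library. Trib3 has the largest fold change, 0.58, and Cebpg lies at -0.034 with an interval from -0.17 to 0.10.

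Sequence upstream of the 10 genes was searched because members of this pathway are known to be reached through a short composite element that binds ATF4 paired with a C/EBP factor. Its core was searched as TGATGNAA on both strands, from 250 bases before to 50 after each start in RefSeq's table (GRCm38.p6), which held 11 promoters for the 10 genes. The core was found in Atf3, Nupr1 and Trib3, which are also the 3 with the largest fold changes. It was not found in Atf4 or Ddit3, which were called too, and a link between the core and the fold change was not tested. In the lines below the capitals mark the motif, each sequence reads 5′ to 3′ on the gene's strand, and the core lies on the opposite strand in each of these 3 genes, so it appears as its reverse complement. The fourth line shows the cAMP response element TGACGTCA, a palindrome bound by CREB and ATF proteins, which was found in Ppp1r15a alone of the 10.
Atf3 (chr1:191183406-191183473, minus strand): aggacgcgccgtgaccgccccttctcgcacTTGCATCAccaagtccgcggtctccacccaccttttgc
Nupr1 (chr7:126625543-126625610, minus strand): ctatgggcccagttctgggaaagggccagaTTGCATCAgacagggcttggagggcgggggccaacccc
Trib3 (chr2:152344039-152344076, minus strand): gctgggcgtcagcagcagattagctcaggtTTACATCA
Ppp1r15a (chr7:45526269-45526310, minus strand): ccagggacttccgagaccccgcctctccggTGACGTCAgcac

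Counted from RefSeq's start, the Atf3 and Nupr1 motifs begin 110 bases before it and the Ppp1r15a motif 12 bases before it. The Trib3 motif begins 15 bases into the RefSeq transcript. By the gene position printed for Trib3 below, which ends at 152344032 on the minus strand, that motif lies before the start. On its own strand the core reads TGATGCAA in Atf3 and in Nupr1, and TGATGTAA in Trib3. Among all 32851 promoters listed, 3.97% held the core TGATGNAA and 1.79% held TGACGTCA. By gene, TGACGTCA was found for 3.63% of tested genes with a promoter listed and for 2.3% of those called higher. Counted by gene, the core was found for 3 of the 10 genes, for 6.56% of 305 called-higher genes with a promoter listed, and for 2.7% of 9786 tested genes with one. Among other ATF4 targets that were tested and had a promoter listed, it was found in 14 of 37 (37.8%), Asns, Chac1 and Slc7a11 among them. The rest of the 47 tested targets were not searched. The share was nearly the same among those called higher, at 7 of 18 (38.9%). The ER stress response element in its full consensus form, bound by ATF6 with NF-Y, was found in 0 of the 10 and in 0.119% of all promoters. A match describes letters in this window and is not evidence of binding, and its absence from the window says nothing about elements elsewhere.

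Atf4 (chromosome 15, 80255184 to 80257541, ENSMUSG00000042406) encodes the central activator of the pathway. It was the most abundant of the 10 by far, with 12511 and 12460 reads in EM-plasma libraries and 11731 and 11251 reads in control libraries. Its level was 268 and 268 CPM in EM-plasma cells, against 238 and 237 CPM in control cells. The 2 libraries of each group nearly coincided, so the groups stood clearly apart although the step was small. Atf4 rose 1.13-fold (log2 fold change 0.17, SE 0.044, 95% interval 0.082 to 0.26, adjusted p = 0.0160 in edgeR's quasi-likelihood test). The log2 fold change was 0.17 in each of the 10 alternative fits, but the adjusted p was 0.44 without EM-plasma 1, 0.397 without EM-plasma 2 and 0.0997 without control 2.

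Ddit3 (chromosome 10, 127290774 to 127296288, ENSMUSG00000025408) encodes CHOP, a C/EBP-family factor that ATF4 induces and that is known for promoting cell death under lasting ER stress. Its level was 28.4 and 27.4 CPM in EM-plasma cells, against 22.9 and 21.3 CPM in control cells. Both EM-plasma libraries were above both controls, by more than the spread within either group. Ddit3 rose 1.26-fold (log2 fold change 0.34, SE 0.073, adjusted p = 0.00448 in edgeR's test). That call ended without EM-plasma 1 (adjusted p = 0.157), EM-plasma 2 (0.0574) or control 2 (0.151). Another Ensembl gene named Ddit3 (ENSMUSG00000116429) lies on the same strand, and all its 105 exon bases are shared with ENSMUSG00000025408. It was not read here. Ddit3 also shares 68 exon bases with Mars on the other strand, and no source used here says whether the counting used strand. Mars, a tRNA synthetase gene, averaged 197 CPM in EM-plasma and 183 CPM in controls and was not called (adjusted p = 0.182).

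Atf3 (chromosome 1, 191170296 to 191218039, ENSMUSG00000026628) encodes a stress-induced bZIP factor that often represses, and many stress routes besides ATF4 reach it. It had 444 and 495 reads in EM-plasma libraries and 388 and 324 reads in control libraries, or 9.52 and 10.6 CPM against 7.88 and 6.84 CPM. The spread within each group was the widest of the called genes relative to the level, yet the groups did not overlap. Atf3 rose 1.37-fold (log2 fold change 0.45, SE 0.116, adjusted p = 0.0160 in edgeR's test). Its call ended without EM-plasma 2 (adjusted p = 0.262), control 1 (0.0615) or control 2 (0.251), and with DESeq2 (0.0654).

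Atf5 (chromosome 7, 44812256 to 44816658, ENSMUSG00000038539), a relative of Atf4 whose message is also translated more when eIF2alpha is phosphorylated, was at 37.8 and 35.9 CPM in EM-plasma cells and 33.8 and 30.4 CPM in control cells. The groups did not overlap, but the gap between them was smaller than the spread within the controls. Its log2 fold change was 0.20 (95% interval 0.059 to 0.34) and it was not called (adjusted p = 0.0819 in edgeR's test). Atf5 shares 82 exon bases with Nup62 and Il4i1 on the other strand.

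Cebpb and Cebpg encode C/EBP partners with which ATF4 can pair. Cebpb (chromosome 2, 167688915 to 167690418, ENSMUSG00000056501) had 243 and 270 reads in EM-plasma libraries and 236 and 205 reads in control libraries, the fewest of the 10 genes, or 5.21 and 5.80 CPM against 4.79 and 4.32 CPM. The groups did not overlap, and at this depth the 95% interval of the log2 fold change ran from -0.025 to 0.57 (adjusted p = 0.311 in edgeR's test). Of its 1504 exon bases 312 overlap Tmem189 on the other strand, which averaged 221.5 CPM in EM-plasma and 211.5 CPM in controls, so the level of Cebpb is uncertain if strand was not used. Cebpg (chromosome 7, 35046422 to 35056573, ENSMUSG00000056216) was at 33.1 and 32.2 CPM in EM-plasma cells and 32.7 and 34.1 CPM in control cells. Its groups overlapped, and its log2 fold change was -0.034 (95% interval -0.17 to 0.10, adjusted p = 0.839 in edgeR's test). Cebpg shares 73 exon bases with Gm44836 on the same strand.

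Trib3 (chromosome 2, 152337422 to 152344032, ENSMUSG00000032715) encodes a pseudokinase that binds ATF4 and dampens its activity, and that also binds the kinase AKT. It had 1158 and 1247 reads in EM-plasma libraries and 874 and 795 reads in control libraries, or 24.8 and 26.8 CPM against 17.8 and 16.8 CPM. Both EM-plasma libraries were well above both controls. Trib3 rose 1.5-fold (log2 fold change 0.58, SE 0.078, 95% interval 0.42 to 0.74, adjusted p = 1.21e-05 in edgeR's test) and lay at percentile 95.5 of all log2 fold changes. The call held without EM-plasma 1, EM-plasma 2 or control 1 and ended without control 2 (adjusted p = 0.0804).

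Nupr1 (chromosome 7, 126623249 to 126630861, ENSMUSG00000030717) encodes a small stress-induced nuclear protein that works with chromatin regulators and is itself raised by ATF4. It was at 9.20 and 8.89 CPM in EM-plasma cells and 6.11 and 6.52 CPM in control cells, from 429, 414, 301 and 309 reads. The gap between the groups was several times the spread within either. Nupr1 rose 1.43-fold (log2 fold change 0.52, SE 0.118, adjusted p = 0.00655 in edgeR's test). Its call ended without EM-plasma 1 (adjusted p = 0.0691), control 1 (0.0718) or control 2 (0.122).

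Ppp1r15a (chromosome 7, 45522916 to 45526268, ENSMUSG00000040435), the gene of GADD34, was at 21.9 and 22.6 CPM in EM-plasma cells and 19.4 and 18.1 CPM in control cells. The groups did not overlap, the log2 fold change was 0.25 (95% interval 0.085 to 0.41), and the gene was not called (adjusted p = 0.0578 in edgeR's test). Its relative Ppp1r15b, which serves the same phosphatase without being stress-induced, was at 248 and 242 CPM in EM-plasma cells and 249 and 259 CPM in control cells (adjusted p = 0.586).

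Sesn2 (chromosome 4, 132492032 to 132510501, ENSMUSG00000028893) encodes sestrin 2, a leucine sensor that restrains the growth kinase complex mTORC1 and is reached by ATF4, NRF2 and p53. It was at 48.7 and 49.0 CPM in EM-plasma cells and 44.9 and 43.2 CPM in control cells. The groups did not overlap, but the log2 fold change of 0.15 (95% interval 0.023 to 0.27) was not called (adjusted p = 0.160 in edgeR's test). Its paralog Sesn1, better known as a p53 and FOXO target, fell to 19.7 and 21.6 CPM in EM-plasma cells, against 23.6 and 26.5 CPM in control cells (log2 fold change -0.28, adjusted p = 0.0329). Every fit without 1 library ended the call of Sesn1, with adjusted p = 0.546 without EM-plasma 1, 0.0983 without EM-plasma 2, 0.0607 without control 1 and 0.327 without control 2. Sesn3 was at 94.1 and 93.0 CPM in EM-plasma cells and 103 and 104 CPM in control cells (log2 fold change -0.14, adjusted p = 0.101). The difference between the sestrin genes was not tested.

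Per kilobase of annotated exon (FPKM, CPM divided by the summed exon length in kilobases), Atf4 stood far above the others, at 114 ± 0.203 FPKM in EM-plasma cells and 101 ± 0.284 FPKM in control cells (SD, n = 2 each). Next came Atf5 at 18.5 ± 0.65 FPKM in EM-plasma and 16.1 ± 1.21 FPKM in controls. Ddit3 followed at 16.3 ± 0.407 FPKM in EM-plasma and 12.9 ± 0.672 FPKM in controls, and Sesn2 at 14.1 ± 0.0767 FPKM in EM-plasma and 12.7 ± 0.327 FPKM in controls. Ddit3 and Sesn2 overlapped in the controls but not in EM-plasma. Below them in both groups stood Trib3, Ppp1r15a, Cebpg, Atf3, Cebpb and Nupr1 in that order. Cebpb and Nupr1 overlapped in EM-plasma, at 3.66 ± 0.277 and 3.60 ± 0.0866 FPKM, and Atf3 and Cebpb overlapped in controls, at 3.42 ± 0.344 and 3.03 ± 0.221 FPKM. The order of the 10 genes was the same in both groups. A long annotated 3′ part, as in Cebpg, lowers a per-length level if the cells use a shorter form.

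The summed level of the 10 genes was 487 and 487 CPM in EM-plasma libraries and 428.5 and 418.9 CPM in control libraries, and Atf4 made up 55.1% and 55% of it in EM-plasma and 55.6% and 56.7% in controls. Relative to Atf4 in the same library the genes did not all move alike. For every 100 CPM of Atf4 there were 9.26 and 10 CPM of Trib3 in EM-plasma libraries and 7.45 and 7.07 CPM in control libraries. For Nupr1 these values were 3.43 and 3.32 CPM in EM-plasma and 2.57 and 2.75 CPM in controls, and for Ddit3 10.6 and 10.3 CPM in EM-plasma and 9.62 and 8.98 CPM in controls. Cebpg was lower against Atf4, at 12.3 and 12.0 CPM in EM-plasma and 13.7 and 14.4 CPM in controls. Sesn2 kept nearly the same ratio, at 18.1 and 18.3 CPM in EM-plasma and 18.8 and 18.2 CPM in controls. These ratios are descriptions and were not tested.

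**Figure D3:**
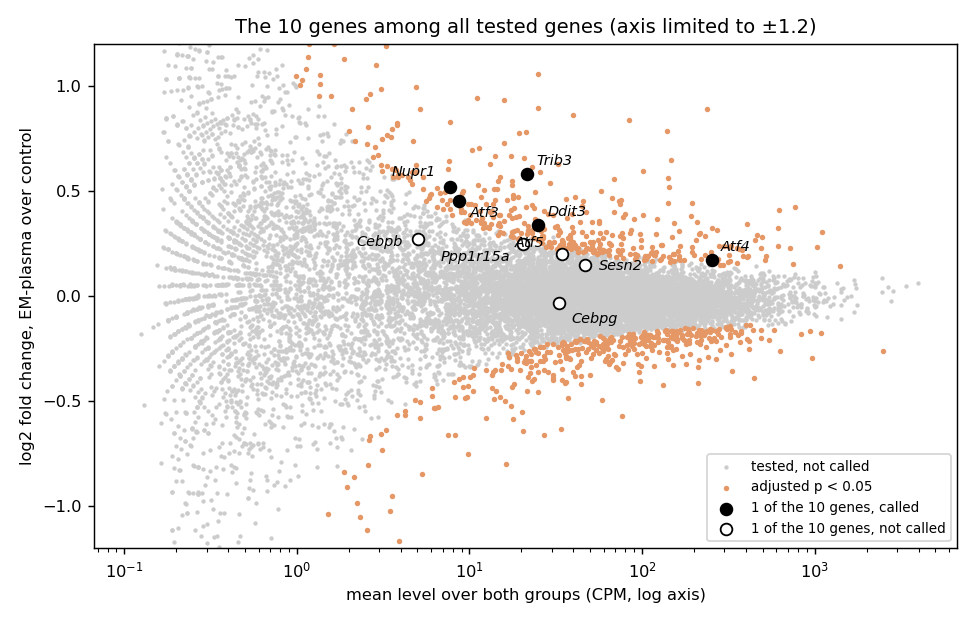
Log2 fold change of EM-plasma over control against the mean level of a gene (CPM, log axis) for the 13664 tested genes, of which 192 lie beyond the axis limit of 1.2. Orange points passed the test, and the 10 genes are labelled, filled where called. Atf4 is called at a small fold change and a high level, while Cebpb, at the lowest level of the 10, has a larger fold change and is not called.

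The other targets of ATF4 were read from a list of 50 genes that leaves out the 10. Of its 47 tested genes 22 were called higher and 1 lower, against 3.34% and 2.88% of all tested genes, and the median log2 fold change was 0.18. The 4 called genes with the smallest adjusted p were Slc7a11, Asns, Slc6a9 and Aldh1l2. Slc7a11, the cystine importer subunit, was at 108 and 108 CPM in EM-plasma cells and 59.0 and 62.0 CPM in control cells, a larger step than in any of the 10 genes (log2 fold change 0.84, SE 0.055, adjusted p = 1.61e-11 in edgeR's test). Asns, asparagine synthetase, was at 215 and 221 CPM in EM-plasma and 162 and 173 CPM in controls (log2 fold change 0.38). Slc6a9, a glycine transporter, was at 36.0 and 33.8 CPM in EM-plasma and 24.9 and 23.3 CPM in controls (log2 fold change 0.54), and its call ended without control 2 (adjusted p = 0.0763). Aldh1l2, a mitochondrial folate enzyme, was at 113 and 116 CPM in EM-plasma and 87.9 and 88.1 CPM in controls (log2 fold change 0.39). Slc7a11, Asns and Aldh1l2 were still called without any 1 of the 4 libraries. Ddit4, which restrains mTORC1, was the target called lower, at 28.1 and 31.4 CPM in EM-plasma and 39.9 and 33.8 CPM in controls (log2 fold change -0.31, adjusted p = 0.0133). That call ended without EM-plasma 1, control 1 or control 2, and its log2 fold change ran from -0.42 to -0.19 over the alternative fits. Fewer targets were called higher in each fit without 1 library, where fewer of all tested genes were called too. The median log2 fold change of the targets was 0.19 without EM-plasma 1 and 0.17 without EM-plasma 2. It was 0.20 without control 1 and 0.19 without control 2.

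**Figure D4:**
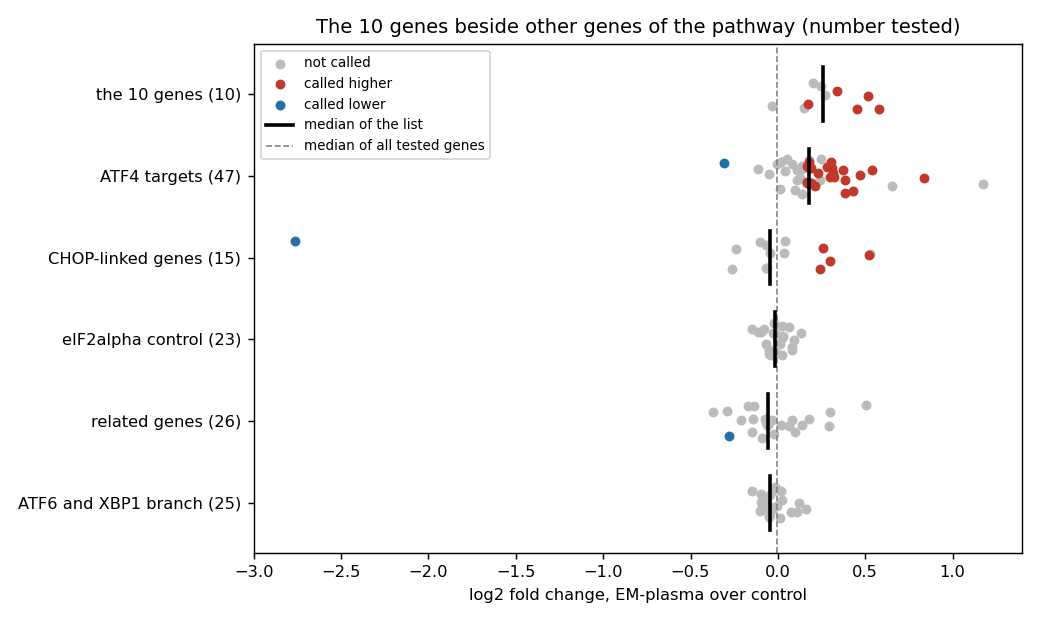
Log2 fold change of EM-plasma over control for the 10 genes and 5 lists of other genes, with the number tested in brackets. Points are genes, red where called higher and blue where called lower, black bars are list medians and the dashed line is the median of all tested genes. The medians of the 10 genes and of the ATF4 targets, 0.26 and 0.18, lie to the right of the dashed line, and those of the other 4 lists lie between -0.054 and -0.019.

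Genes linked to CHOP showed no common direction. Of 15 tested genes of this list 4 were called higher (Car6, Ero1l, Bcl2 and Cars), or 26.7% against 3.34% of all tested genes. Irf7 alone was called lower, or 6.67% of the list against 2.88% of all tested genes. The median log2 fold change of the list was -0.044. Car6, a carbonic anhydrase gene with a stress-induced form that CHOP is known to raise in mouse cells, was at 168 and 172 CPM in EM-plasma cells, against 117 and 120.3 CPM in control cells (log2 fold change 0.52, SE 0.049, adjusted p = 2.39e-08 in edgeR's test). Ero1l, the oxidase that recharges disulfide formation in the ER, was at 239 and 241 CPM in EM-plasma and 192 and 198 CPM in controls (log2 fold change 0.30, adjusted p = 7.01e-05). Car6 and Ero1l were still called without any 1 of the 4 libraries. Cars, the cysteinyl tRNA synthetase gene, was at 136 and 144 CPM in EM-plasma and 117 and 120.3 CPM in controls (adjusted p = 0.00306). The death genes Bbc3, Bcl2l11 and Tnfrsf10b, which encode PUMA, BIM and a TRAIL receptor, had log2 fold changes of -0.26, -0.24 and -0.060 and were not called (adjusted p = 0.181, 0.226 and 0.721). Bcl2, an anti-death gene that CHOP is known to lower, was at 37.9 and 37.9 CPM in EM-plasma and 31.0 and 32.4 CPM in controls (log2 fold change 0.26, adjusted p = 0.0161). Irf7, an interferon regulator, rested on 4 and 3 reads in EM-plasma libraries and 37 and 14 reads in control libraries (adjusted p = 0.00953). Without EM-plasma 1, EM-plasma 2, control 1 and control 2 in turn, the adjusted p was 0.0547, 0.347, 0.0636 and 0.105 for Cars, 0.269, 0.276, 0.075 and 0.109 for Bcl2, and 0.0674, 0.121, 0.185 and 0.105 for Irf7, so each of these 3 calls needed all 4 libraries.

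Upstream of ATF4, the list of genes around eIF2alpha (its kinases and the regulators Impact, Gcn1l1, Dele1 and Oma1, subunits of eIF2, eIF2B and the phosphatase, and Eif2a, Eif2d and Abcf1) held 23 tested genes, of which 0 were called, against 6.21% of all tested genes (3 had an unadjusted p below 0.05, against 19.5% of all tested genes, and DESeq2 called 0). Its median log2 fold change was -0.019. The 2 most abundant were the phosphatase catalytic subunits Ppp1ca, at 367 and 377 CPM in EM-plasma cells and 372 and 359.5 CPM in control cells, and Ppp1cb, at 292 and 301 CPM in EM-plasma and 305 and 336 CPM in controls. Eif2ak3, the gene of the ER stress kinase PERK, was at 106 and 106 CPM in EM-plasma and 105 and 104 CPM in controls (95% interval of the log2 fold change -0.080 to 0.13). These are transcript levels, and the activity of the kinases is set by phosphorylation, which was not measured.

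The relatives of the 10 genes, which are other ATF, CREB, C/EBP, Tribbles and sestrin genes and their partners, held 26 tested genes. Of these 0 were called higher, against 3.34% of all tested genes, and 1 lower, Sesn1, against 2.88%. Their median log2 fold change was -0.054. The Tribbles paralog Trib1 was at 15.6 and 14.5 CPM in EM-plasma cells and 15.4 and 13.4 CPM in control cells, where the groups overlapped (adjusted p = 0.765). The other branches of the unfolded protein response, governed by ATF6 and XBP1, held 25 tested genes. Of these 0 were called, against 6.21% of all tested genes, and DESeq2 called 0. An unadjusted p below 0.05 was seen for 6 of the 25, against 19.5% of all tested genes. The median log2 fold change of this list was -0.046. The 2 most abundant were the ER chaperones Canx, at 1192 and 1229 CPM in EM-plasma and 1205 and 1299 CPM in controls, and Calr, at 1143 and 1178 CPM in EM-plasma and 1114 and 1184 CPM in controls. Both overlapped between the groups. No difference between this list and the ATF4 targets was tested.

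Genes whose levels followed Ddit3 or Atf4 most closely over the 4 libraries were found by the Euclidean distance between log2 CPM values centred on each gene's mean, among tested genes with at least 5 CPM. Nearest to Ddit3 were Tead3, Arhgap27 and Slc6a8, at distances of 0.0169, 0.0201 and 0.0225. Slc6a8, the creatine transporter, was at 177 and 168 CPM in EM-plasma cells and 141 and 130.2 CPM in control cells, and Arhgap27 at 50.2 and 48.1 CPM in EM-plasma and 39.7 and 37.3 CPM in controls. Tead3, a partner of YAP, was at 8.07 and 7.78 CPM in EM-plasma and 6.42 and 5.97 CPM in controls. Nearest to Atf4 were Tgfbrap1, Limch1 and Akap8l, at 0.0102, 0.0118 and 0.0135. Limch1 was at 332 and 333 CPM in EM-plasma and 297 and 297 CPM in controls, Tgfbrap1 at 96.1 and 96.5 CPM in EM-plasma and 85.5 and 84.8 CPM in controls, and Akap8l at 45.1 and 44.5 CPM in EM-plasma and 39.6 and 39.6 CPM in controls. Of these nearest genes, Tead3 and Akap8l were not called (adjusted p = 0.0860 and 0.0912 in edgeR's test). Such a distance rests on 4 libraries and describes these only.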

How the data were processed

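Poly(A) RNA of 4 B16 libraries was sequenced with a stranded Illumina kit, per the labels' protocols. The submitters' processing notes name the build GRCm38 and, without saying what each did, CASAVA, TopHat2 2.1.1, HTSeq and edgeR. No source used here gives the annotation release or says whether counting used strand. The authors deposited a table of whole-number counts per Ensembl gene, 1 column per library, and a scaled signal in 1 table per sample. The deposited signal was proportional to the counts in each library and served only to check the columns.

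Symbols were found in GENCODE release vM21 for 99.6% of 53465 rows. Genes were kept with filterByExpr in edgeR 4.0.16 (R 4.3.3), scaled by TMM and fitted on group alone. The quasi-likelihood F test was two-sided, and Benjamini-Hochberg adjustment ran over every tested gene. Standard errors were taken as |log2 fold change| over the square root of F, and intervals hold counting error and library spread only. The test was tried on simulated data with known changes, and recovered 46.3% of 1.2-fold, 76.1% of 1.5-fold and 72.7% of 2-fold changes. A gene that was not called at a fold near 1.2 is therefore not shown to be unchanged. Alternatives used DESeq2 1.42.0 (its size factors, then its own test), limma 3.58.1 (voom), edgeR's newer dispersion, no filter, the replicate number as a block, and each library left out.

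The members and lists were chosen with earlier results of these data known. The genes named beside the 10 were, per list, the 4 called genes with the smallest adjusted p or, with none called, the 2 most abundant, and the 3 nearest genes to Ddit3 and Atf4. Ddit4, Bcl2, Bbc3, Bcl2l11, Tnfrsf10b, Chac1, Eif2ak3, Ppp1r15b, Trib1, Sesn3 and the overlapping genes were chosen after their values were seen.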

Additional observations from a re-analysis of the deposited data

How the results depend on the processing

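None of the log2 fold changes of the 10 genes reversed its sign in the 10 alternatives, that of Cebpg rounded to 0 without control 2, and calls moved. DESeq2's own test called 4 of the 10 and 277 genes higher in all, 0 CHOP-linked genes lower (Irf7 got no adjusted p there) and 0 relatives lower. With no filter 22906 genes entered, the prior degrees of freedom were 3.36 against 25.5, and 13 genes were called higher and 1 lower: 0 of the 10, 1 ATF4 target and 1 CHOP-linked gene higher, and 0 ATF4 targets, 0 CHOP-linked genes and 0 relatives lower.

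The replicate numbers of the 2 groups are not stated to pair libraries. Same-numbered libraries deviated from their group means with a correlation of 0.206 across 10017 genes. With 2 libraries per group the deviations of 1 mirror those of the other. The correlation is thus 1 comparison, and the crossed pairing gives -0.206 by construction. With the replicate number as a block 832 genes (6.09%) were called higher and 851 lower. Of the 10 genes 7 were then called higher, with Atf5 (adjusted p = 0.0184) and Ppp1r15a (adjusted p = 0.0145) added in edgeR's test. That fit took the spread from all genes together, with infinite prior degrees of freedom and a total of 13660, against 27.5 in the main fit. Its smaller p-values are therefore not comparable with those of the main fit. ATF4 targets, eIF2alpha control genes and relatives called lower numbered 2, 2 and 4 with the block, and the ATF6 and XBP1 branch had 1 higher and 1 lower.

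Fits without 1 library called between 48 and 258 genes higher and between 23 and 289 lower, in both cases fewest without control 2. They called 0 to 3 of the 10 genes higher, 5 to 18 ATF4 targets higher and 0 to 1 lower, 2 CHOP-linked genes higher and 0 lower, 0 to 1 eIF2alpha control gene lower and 0 relatives lower. Leaving out control 1 or control 2 left 5.71 or 5.27 total degrees of freedom in place of 27.5, and leaving out either EM-plasma library gave a median SE of 0.108 in place of 0.0698, so these fits also estimated the spread differently. The log2 fold changes of the uncalled genes Canx and Calr crossed 0, running from -0.11 to 0.0092 for Canx and from -0.033 to 0.062 for Calr. At 205 to 270 reads per library Cebpb was measured least precisely of the 10.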
